A study of Mus musculus with 42 samples.

Results

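The 10 peptide hormone genes Ins2, Gcg, Calca, Calcb, Iapp, Sst, Ppy, Pyy, Nts and Gal were followed across sorted mouse thymic epithelial cells (TEC). They were chosen by name, as rows of the count table whose Ensembl identifier maps to one of these symbols, and make up 10 of the 53465 genes counted. RNA was sequenced from 42 libraries of 200 sorted cells each, in a study of a deletion of Ski in the thymic epithelium. Ski encodes a corepressor of SMAD transcription factors in TGF-beta signalling. The cells were sorted as cortical TEC (cTEC: Epcam+, CD45-, UEA-, Ly51+) or as medullary TEC (mTEC) with low or high MHC class II. The labels give each of these 3 subsets 5 Control libraries, 7 KO libraries and a pair of Ski flox Control libraries. The sources used here do not give the Cre driver, the deleted part of Ski, the age of the mice or which libraries share a mouse. P-values therefore measure the spread between libraries, which may be partly technical.

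Medullary TEC transcribe a large share of the genes that are otherwise restricted to single peripheral tissues, and present the products to developing T cells. T cells that bind such self-antigens strongly are deleted or become regulatory T cells. Part of this promiscuous expression depends on the regulator Aire, which is most abundant in mTEC with high MHC class II, and part on the transcription factor Fezf2. Each tissue antigen is typically made by a small minority of mTEC at any time. Insulin is the classical example: the thymic source in mice is Ins2, and a loss of thymic insulin is linked to autoimmunity against pancreatic beta cells. The other genes studied here encode hormones of islet cells (Gcg, Iapp, Sst, Ppy), of the gut (Pyy, Nts), of thyroid C cells and sensory neurons (Calca, Calcb) and of neurons (Gal).

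Of the 42 libraries, 2 were left out of all comparisons because they held under 100000 counts: replicate 2 of MHCII-low mTEC Control (82 counts) and replicate 2 of MHCII-high mTEC Control (41828 counts). The other 40 held 3217251 to 7068077 counts. The unit of level is CPM, the count of a gene divided by the TMM-adjusted total of its library and multiplied to a shared scale, and a gene is called detected in a library with at least 1 count. The reads carry no molecular identifiers, so the limits given for genes without a count include counting error alone. In pools of 200 cells, more cells with a transcript and more transcript per cell cannot be told apart. The subsets were compared on some of their markers, which did not all set them apart. Psmb11, the cortical proteasome subunit, had a median of 387 CPM in cTEC, 6.91 in MHCII-low mTEC and 4.71 in MHCII-high mTEC. Aire was at 279 to 1411 CPM in the MHCII-high libraries, at 4.06 to 510 in the MHCII-low ones and at 0 to 120 in cTEC. The summed MHCII-low mTEC markers were 1192, 305, 556 and 345 CPM in the MHCII-low Control libraries. In the MHCII-high Control libraries they were 885, 1117, 374 and 596. The summed MHCII-high mTEC markers overlapped between all subsets, with values given below. The cTEC library KO replicate 5 stood apart with 6.51 CPM of Psmb11. The cTEC library Control replicate 3 held parathyroid transcripts, with 6007 CPM of Pth and 573 CPM of Gcm2, the parathyroid lineage factor. Ski itself had a mean of 16.4 CPM in cTEC KO and 16.8 in cTEC Control, 6.52 and 24.7 in the MHCII-low libraries, then 6.16 and 13.4 in the MHCII-high ones. None of these differences passed edgeR's quasi-likelihood test (adjusted p = 1, 0.796 and 1). Gene counts that include undeleted exons do not check the KO label.

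The genes lie on 7 chromosomes (GRCm38, GENCODE M21). Ins2 is on chromosome 7 (142678656 to 142743381, minus strand), Gcg on chromosome 2 (62474530 to 62483650, minus) and Iapp on chromosome 6 (142298423 to 142303961, plus). Sst is on chromosome 16 (23889573 to 23890958, minus), Nts on chromosome 10 (102481756 to 102490486, minus) and Gal on chromosome 19 (3409915 to 3414544, minus). There are also 2 neighbouring pairs of related genes. Calca (7:114631478-114636357, minus) and Calcb (7:114718643-114723365, plus) are 82286 bases apart. Ppy (11:102099930-102101319, minus) and Pyy (11:102106676-102107832, minus) are 5357 bases apart. Sequence shared within these families is small: 12 of 1678 windows of 50 bases in Calca transcripts also occur in Calcb, 7 of 1504 in Ins2 also occur in Ins1, and none of Ppy occur in Pyy. Iapp overlaps Slco1a5, a transporter gene on the opposite strand, and the library chemistry does not mark the strand. Slco1a5 had a median of 0 CPM in cTEC, 14.6 in MHCII-low mTEC and 22.8 in MHCII-high mTEC, so its reads and those of Iapp cannot be fully told apart.

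Promoter sequence from RefSeq (GRCm38.p6, 250 bases before to 50 after the annotated start) was found for Gcg, Iapp, Calca, Nts, Ppy, Pyy, Sst and Gal, 8 of the 10 genes. Shown are 3 of them: Calca and Gcg, the genes that passed the test between MHCII-high mTEC and cTEC in both genotypes, and Sst, the textbook promoter with a cAMP response element. Capitals mark matches on either strand to the full element TGACGTCA, to its shorter form TGACG, or to the TATA box TATAAA.
Calca, chr7:114636308-114636607, minus strand: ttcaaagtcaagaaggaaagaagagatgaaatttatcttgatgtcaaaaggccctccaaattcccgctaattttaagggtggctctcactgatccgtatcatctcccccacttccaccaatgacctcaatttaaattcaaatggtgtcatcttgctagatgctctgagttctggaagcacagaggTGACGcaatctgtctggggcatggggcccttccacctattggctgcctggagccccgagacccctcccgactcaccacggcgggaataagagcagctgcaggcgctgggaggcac
Gcg, chr2:62483604-62483903, minus strand: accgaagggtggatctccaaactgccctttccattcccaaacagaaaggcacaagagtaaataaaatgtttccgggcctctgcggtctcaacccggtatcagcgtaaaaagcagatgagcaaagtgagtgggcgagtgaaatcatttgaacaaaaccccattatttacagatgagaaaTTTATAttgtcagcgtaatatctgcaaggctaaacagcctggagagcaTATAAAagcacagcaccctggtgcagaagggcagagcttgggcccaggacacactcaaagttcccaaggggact
Sst, chr16:23890795-23891094, minus strand: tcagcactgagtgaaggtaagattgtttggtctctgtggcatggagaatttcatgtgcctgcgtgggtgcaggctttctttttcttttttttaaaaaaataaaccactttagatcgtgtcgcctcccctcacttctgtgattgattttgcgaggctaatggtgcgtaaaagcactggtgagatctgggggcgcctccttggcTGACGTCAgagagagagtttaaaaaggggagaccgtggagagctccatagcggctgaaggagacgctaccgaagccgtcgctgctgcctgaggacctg

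The full element was found in Sst alone among the 8 genes, at -48 from its start, and is present in 1.79% of the 32851 promoters in the table. The shorter form, which the full element contains, was found in Calca (at -65), Nts, Sst and Gal, and in 20.8% of all promoters. TATAAA was found in Gcg and Ppy, and in 13.6% of all promoters. The 8 genes share no one of these 3 motifs. A match is a description of the letters and shows no binding.

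Hormone transcripts were found most often in MHCII-high mTEC and least often in cTEC. Of the 130 pairs of a gene and an MHCII-high library, 121 held at least 1 count, against 79 of 130 in MHCII-low mTEC and 27 of 140 in cTEC. An MHCII-high library held between 8 and 10 of the 10 genes, with a median of 9. An MHCII-low library held between 1 and 10, with a median of 6, and a cTEC library between 0 and 4, with a median of 2. All 10 genes were detected together in 5 MHCII-high libraries and 4 MHCII-low libraries, and in no cTEC library. The summed level of the 10 genes had a median of 2164 CPM in MHCII-high mTEC (614 to 2926), 286 in MHCII-low mTEC (0.697 to 1987) and 7.88 in cTEC (0 to 97.2).

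**Figure D1:**
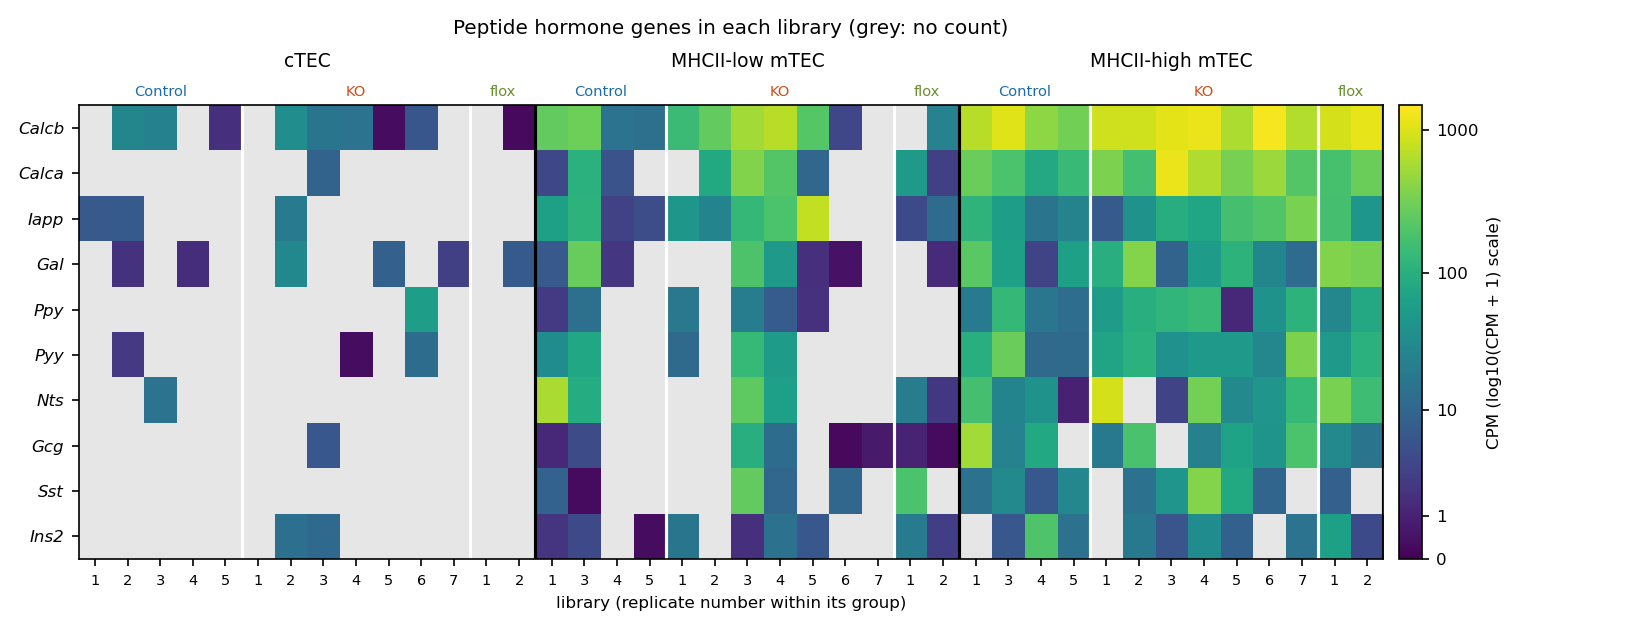
Level of each hormone gene (rows, ordered by median in MHCII-high mTEC) in each of the 40 libraries (columns, grouped by subset and genotype, numbered by replicate), as CPM on a log10(CPM + 1) colour scale with grey for no count. Calcb, Calca, Iapp, Gal, Ppy and Pyy were found in all 13 MHCII-high libraries, while cTEC libraries are mostly grey.

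Per kilobase of exon, the median level over the 13 MHCII-high libraries ran from 708 CPM per kb for Calcb through 166 for Calca, 108 for Ppy, 82.1 for Pyy, 80.9 for Gal and 76.2 for Iapp to 35.4 for Nts, 20.5 for Gcg, 19.7 for Sst and 6.56 for Ins2. The ranges of each gene and the next in this order overlapped. Calcb gave the largest CPM of the 10 genes in 11 of the 13 MHCII-high libraries. Calca led in KO replicate 3 and Nts in KO replicate 1. The leading gene held a median of 45.8% of the summed hormone CPM of its library (31.9% to 60.1%).

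Among the 10 genes, Calcb and Calca, the calcitonin gene-related peptide genes, had the highest medians over the MHCII-high libraries (895 and 280 CPM). In MHCII-high Ski flox Control, Calcb had the highest mean (1032 CPM). The means of Gal (354 CPM) and Nts (251) were above that of Calca (231) in this group. Calca encodes calcitonin and alpha-CGRP by alternative splicing, which counts per gene do not separate, and Calcb encodes beta-CGRP. In Control, Calca was at 280, 191, 80.5 and 141 CPM in the 4 MHCII-high libraries, at 3.93, 105, 5.498 and 0 in the 4 MHCII-low ones and at 0 in all 5 cTEC libraries. Every MHCII-high Control library was above every cTEC one. With the cTEC group placed at the 3 counts that a count of 0 allows over its summed library sizes, Calca was at least 1715-fold higher in MHCII-high mTEC (173 ± 84.1 CPM, SD, n = 4). Leaving out each MHCII-high library in turn moved this bound between 1363 and 2020. The cTEC limit was held fixed, and no cTEC library was left out for it. Among KO libraries, Calca ranged from 167 to 1199 CPM with a median of 353 in MHCII-high mTEC, from 0 to 370 with a median of 10.1 in MHCII-low mTEC, and was found in 1 of 7 cTEC libraries, at 9.19 CPM. Calca passed the test in both genotypes (edgeR, adjusted p = 0.0199 in Control and 0.00408 in KO, where log2 fold change = 8.54 ± 1.79 SE).

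Calcb was the one gene of the 10 with counts in most cTEC libraries, 9 of 14. In Control it was at 689, 1046, 426 and 316 CPM in MHCII-high mTEC, at 256, 299, 15.3 and 13.8 in MHCII-low mTEC, and at 0, 28.1, 24.0, 0 and 1.77 in cTEC. In KO it ranged from 616 to 1352 (median 895) in MHCII-high mTEC, from 0 to 679 (median 220) in MHCII-low mTEC and from 0 to 35.0 (median 6.09) in cTEC. No MHCII-high library overlapped a cTEC library in either genotype. The mean in MHCII-high mTEC was 57.5-fold that in cTEC in Control and 92.8-fold in KO. The difference passed in KO (edgeR, log2 fold change 6.54 ± 1.41 SE, adjusted p = 0.00414) and not in Control (5.83 ± 1.63, adjusted p = 0.0622), and limma voom called it in neither (adjusted p = 0.0777 and 0.215). Calcb also varied least from library to library: its coefficient of variation over the 13 MHCII-high libraries was 35.9%, against 74.9% for Ppy, the next lowest, and 215% for Sst, the highest.

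**Figure D2:**
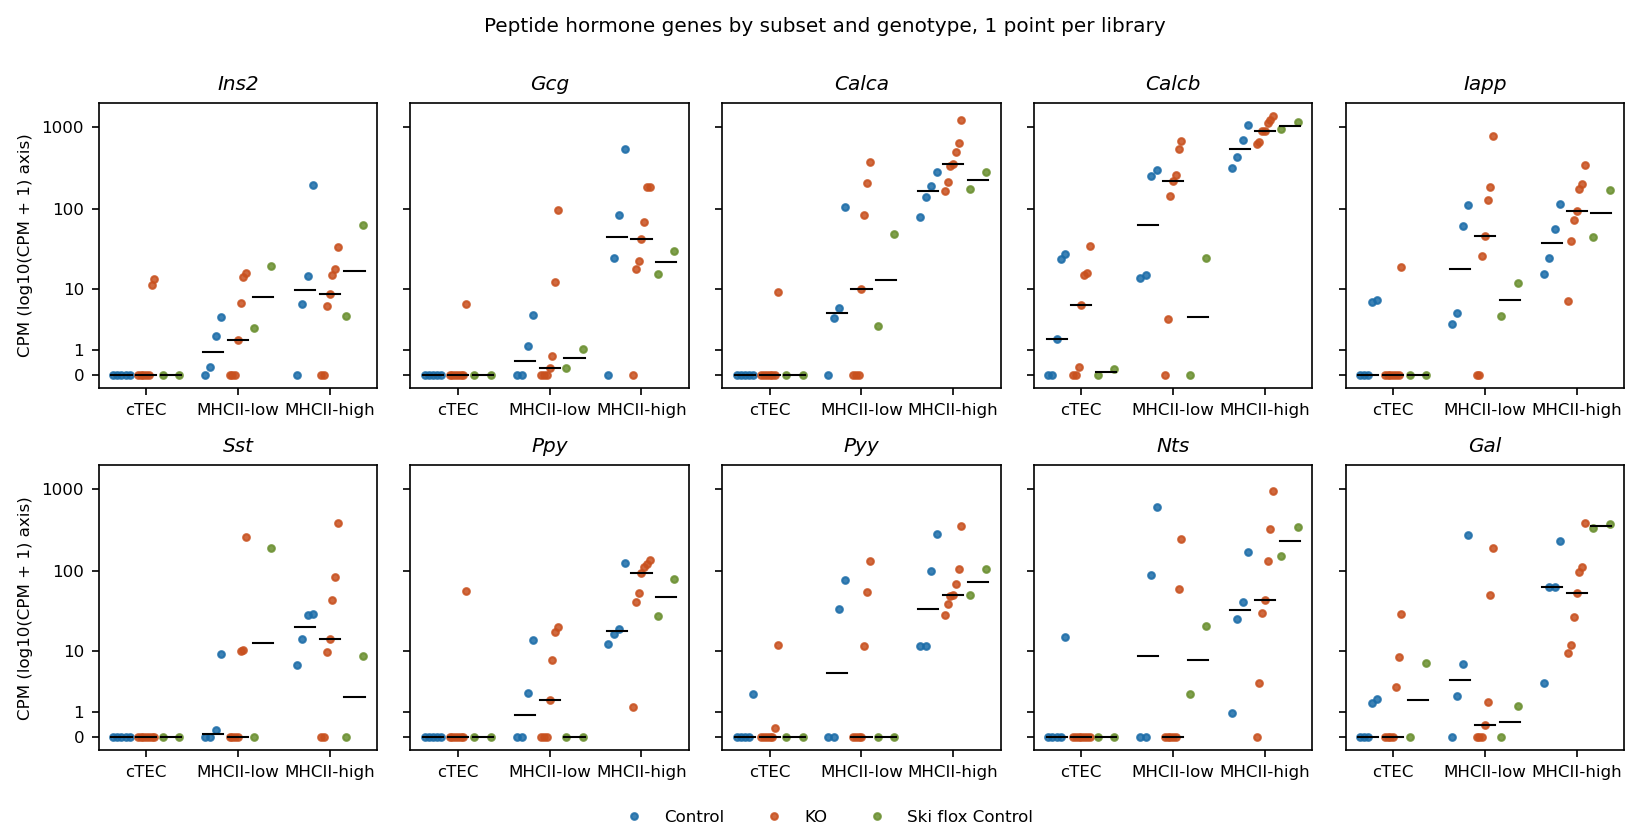
CPM of each hormone gene (log10(CPM + 1) axis) by subset, with 1 point per library coloured by genotype and a bar at the median of each group. The Calca and Calcb points of MHCII-high mTEC lie above all cTEC points, and in every panel the KO points overlap the Control points.

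The islet hormones were lower and more uneven. Ins2, one of the mouse insulin genes, was at 0, 6.24, 199 and 14.6 CPM in the 4 MHCII-high Control libraries, at 1.97, 4.07, 0 and 0.261 in MHCII-low mTEC and at 0 in all 5 cTEC libraries. Replicate 4 thus held most of the Control signal: Ins2 was at least 544-fold higher in MHCII-high mTEC than in cTEC, and at least 69.0-fold without that library. Among KO libraries Ins2 reached 34.4 CPM in MHCII-high mTEC (median 8.60), 16.0 in MHCII-low mTEC and 13.6 in cTEC, where 2 of 7 libraries held it. Ins2 did not pass in either genotype (edgeR, adjusted p = 0.0551 in Control; 0.539 in KO, log2 fold change 1.72 ± 1.66 SE). Ins1, the other insulin gene, had 0 counts in cTEC and MHCII-low mTEC and 2 counts in all MHCII-high libraries together.

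Gcg, which encodes glucagon and GLP-1, was at 542, 24.9, 84.0 and 0 CPM in the MHCII-high Control libraries, at 1.23, 4.29, 0 and 0 in the MHCII-low ones and at 0 in every cTEC Control library. In KO it ranged from 0 to 187 (median 43.0) in MHCII-high mTEC and from 0 to 97.0 (median 0.209) in MHCII-low mTEC, and 1 cTEC library held 6.20. Control and KO each had 1 MHCII-high library without a count, so their ranges overlapped with cTEC. Gcg was at least 1613-fold higher in MHCII-high mTEC than in cTEC in Control, and at least 360-fold without MHCII-high replicate 1. It passed in both genotypes (edgeR, adjusted p = 0.0386 in Control; 0.0298 in KO, log2 fold change 6.39 ± 1.93 SE).

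Iapp, which encodes the amyloid peptide co-secreted with insulin, had a mean of 104 ± 207 CPM (SD, n = 13) in MHCII-low mTEC and 105 ± 95.7 (SD, n = 13) in MHCII-high mTEC. In Control it was at 115, 57.5, 15.7 and 24.98 CPM in MHCII-high mTEC, at 62.6, 112, 3.11 and 4.70 in MHCII-low mTEC and at 6.69, 7.02, 0, 0 and 0 in cTEC. The highest value of all, 763 CPM, was in MHCII-low KO replicate 5, where Aire was at 12.8 CPM. Iapp passed against cTEC in KO, both for MHCII-high (log2 fold change 5.65 ± 1.63 SE, edgeR adjusted p = 0.0233) and for MHCII-low mTEC (5.95 ± 1.65, adjusted p = 0.0321). In Control it did not pass (4.26 ± 1.84, adjusted p = 0.175, and 4.03 ± 1.82, adjusted p = 0.233).

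Sst, the inhibitory hormone somatostatin, had no count in any of the 14 cTEC libraries, which allows up to 0.0400 CPM over the subset. The MHCII-high Control libraries held 14.2, 30.0, 6.58 and 28.9 CPM and the MHCII-low ones 9.09, 0.226, 0 and 0. In KO, Sst ranged from 0 to 381 CPM in MHCII-high mTEC (median 14.6) and from 0 to 261 in MHCII-low mTEC (median 0), with single libraries far above the rest in each. It was at least 198-fold higher in MHCII-high mTEC than in cTEC in Control (edgeR, adjusted p = 0.114) and at least 878-fold in KO (adjusted p = 0.0155), or at least 294-fold without KO replicate 4.

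Ppy and Pyy encode pancreatic polypeptide and peptide YY, related hormones that restrain appetite. Ppy was at 19.4, 128, 16.7 and 12.5 CPM in MHCII-high Control libraries, at 2.46, 14.0, 0 and 0 in MHCII-low ones and at 0 in all 5 cTEC ones. In KO it ranged from 1.32 to 136 in MHCII-high mTEC (median 96.2), and the KO groups overlapped because cTEC replicate 6 held 56.9 CPM. Ppy was at least 437-fold higher in MHCII-high mTEC than in cTEC in Control (edgeR, adjusted p = 0.0564), or at least 161-fold without MHCII-high replicate 3. In KO it was 9.90-fold higher by the means (log2 fold change 3.30 ± 1.65 SE, adjusted p = 0.164), a fold that rests on cTEC replicate 6, since Ppy had no count in the other 6 cTEC KO libraries. Without that library Ppy passed in KO (edgeR, adjusted p = 0.00345). Pyy was at 99.7, 283, 11.6 and 11.7 CPM in MHCII-high Control libraries, at 34.4, 77.3, 0 and 0 in MHCII-low ones, and at 2.34 in 1 of 5 cTEC ones. Its MHCII-high range in KO, 28.9 to 352 CPM, lay above the cTEC range of 0 to 12.2. Pyy passed in KO (log2 fold change 5.77 ± 1.82 SE, edgeR adjusted p = 0.0338) and not in Control (7.63 ± 2.38, adjusted p = 0.0896). Its KO call was kept in 7 of the 14 fits that each left out 1 library, with adjusted p from 0.00713 to 0.0602, and was lost without any one of cTEC KO replicates 1, 2, 3, 4, 5 and 7 or MHCII-high KO replicate 7.

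Nts encodes neurotensin, and Gal encodes the neuropeptide galanin. Nts was at 171, 26.1, 41.998 and 0.976 CPM in MHCII-high Control libraries, at 598, 90.9, 0 and 0 in MHCII-low ones, and at 15.3 in 1 of 5 cTEC ones. That cTEC library is Control replicate 3, which holds the parathyroid transcripts, and Nts had no count in the other 13 cTEC libraries. In KO it ranged from 0 to 949 CPM in MHCII-high mTEC (median 44.2), and was at least 2444-fold higher than in cTEC (edgeR, adjusted p = 0.0112), or at least 1033-fold without KO replicate 1. In Control the difference did not pass (log2 fold change 4.25 ± 2.37 SE, adjusted p = 0.317). Gal was at 233, 63.7, 3.54 and 63.4 CPM in MHCII-high Control libraries, at 6.63, 275, 2.15 and 0 in MHCII-low ones and at 0, 1.90, 0, 1.62 and 0 in cTEC. In KO it ranged from 9.36 to 383 CPM (median 53.7) in MHCII-high mTEC and from 0 to 29.4 in cTEC. Gal passed in neither genotype (log2 fold change 6.98 ± 2.34 SE, edgeR adjusted p = 0.105 in Control; 4.11 ± 1.69, adjusted p = 0.0828 in KO).

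Counted together, 2 of the 10 genes were higher in MHCII-high mTEC than in cTEC among Control libraries, Calca and Gcg, where 1.07% of the 23040 genes tested were called higher. Among KO libraries 7 were higher, Calca, Calcb, Nts, Sst, Iapp, Gcg and Pyy, where 12.9% of genes were. The KO comparison holds 7 and 7 libraries and the Control one 4 and 5. The median log2 fold change of the 10 genes was 8.62 in Control and 6.08 in KO, against 0.253 and 0.283 for all genes tested. In Control 5 of the 10 values, and in KO those of Sst and Nts, are fits against cTEC groups without a count. With these genes at their lower bounds the medians were 7.63 and 6.08. In a fit of the cTEC KO and Control groups alone, 1 of the 10 genes passed the count filter. Most of the 10 thus entered the test through mTEC libraries. The median and the shares of all genes tested, here and in the other comparisons with cTEC, are therefore no matched background. With only the groups compared, 8 of the hormone genes were tested in each genotype. Then 3 passed in KO, where 442 of 11860 genes were called, and 5 in Control, where 495 of 13927 were. Every MHCII-high library was above every cTEC library for 7 of the 10 genes in Control (6.8% of genes tested) and for 3 in KO (2.46%). The counts depend on the libraries and the tool. Without any 1 library they ran from 0 to 2 in Control and from 5 to 7 in KO. Calca kept its Control call in 5 of these 9 fits and Gcg in 2. In KO, Calca, Calcb, Iapp, Sst and Nts kept theirs in all 14 fits and Gcg in 11. The lowest Control count came without cTEC replicate 2, 3, 4 or 5, and the lowest KO count without cTEC replicate 4 or 7. Without the cTEC library low in Psmb11 the KO count was 6, and without the one with parathyroid transcripts the Control count was 0. DESeq2 called 8 of the genes in Control, where it called 1713 of all 23040 genes, and limma voom 7, where it called 1954. In KO voom called 8, with Ppy and Gal and without Calcb, among 3232 of all genes. The summed thymocyte and T cell markers (12 genes) had a median of 1765 CPM in cTEC (185 to 4735) and 535 in MHCII-high mTEC (16.8 to 1177), and their part in this comparison was not tested.

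The libraries were also divided at the middle of their library numbers into an early set with 19 and a late set with 21. No label names this division, and the numbers run on without a gap. The median correlation between libraries of the same group was 0.753 within a set and 0.741 across sets. Within the early set alone edgeR called 3 genes in KO (Ppy, Calcb and Pyy), within the late set 4 (Calca, Nts, Gcg and Calcb), and in Control none in either. Over all genes it called 206 of 20066 in KO in the early set and 557 of 20216 in the late set. The sets hold fewer libraries per group.

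Against cTEC, all 10 genes had the higher fitted level in MHCII-low mTEC in Control, and 9 in KO, where Ppy did not, with a wide spread. Among Control libraries none of the 10 genes passed, where 0.703% of all genes were called higher, although the unadjusted p of each lay between 0.000654 and 0.0405. Log2 fold changes in Control were 3.75 ± 1.49 SE for Calcb (edgeR, adjusted p = 0.183), 4.03 ± 1.82 for Iapp, 6.62 ± 2.30 for Gal, 5.77 ± 2.21 for Pyy and 5.78 ± 2.53 for Nts. Those of Calca (10.13 ± 2.67, adjusted p = 0.0619), Ins2 (5.97 ± 2.42), Gcg (5.79 ± 2.66), Ppy (7.34 ± 2.60) and Sst (6.52 ± 3.02) are set against cTEC groups without a count and are fitted values, not bounds. Among KO libraries 5 genes were higher, where 5.19% of all genes were: Calca (6.20 ± 1.63, adjusted p = 0.0254), Calcb (4.67 ± 1.29, adjusted p = 0.0307), Iapp, Sst (adjusted p = 0.0331) and Nts (adjusted p = 0.0378). Sst was at least 462-fold and Nts at least 501-fold higher than in cTEC, or at least 39.0-fold and 117-fold without MHCII-low KO replicate 3. Gcg (4.14 ± 1.75, adjusted p = 0.123), Pyy (3.98 ± 1.68, adjusted p = 0.12), Gal (2.61 ± 1.58, adjusted p = 0.327), Ins2 (0.63 ± 1.62, adjusted p = 0.932) and Ppy (-0.27 ± 1.52, adjusted p = 1) did not pass. Without cTEC KO replicate 6, the fitted value of Ppy was 8.03 and passed (adjusted p = 0.0266). The KO count was 3 without the cTEC library low in Psmb11, 0 without cTEC KO replicate 4, and 0 with limma voom. In the 14 fits that each left out 1 library, Calca kept its KO call in 13, Calcb and Sst in 9 each, Iapp in 8 and Nts in 6.

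**Figure D3:**
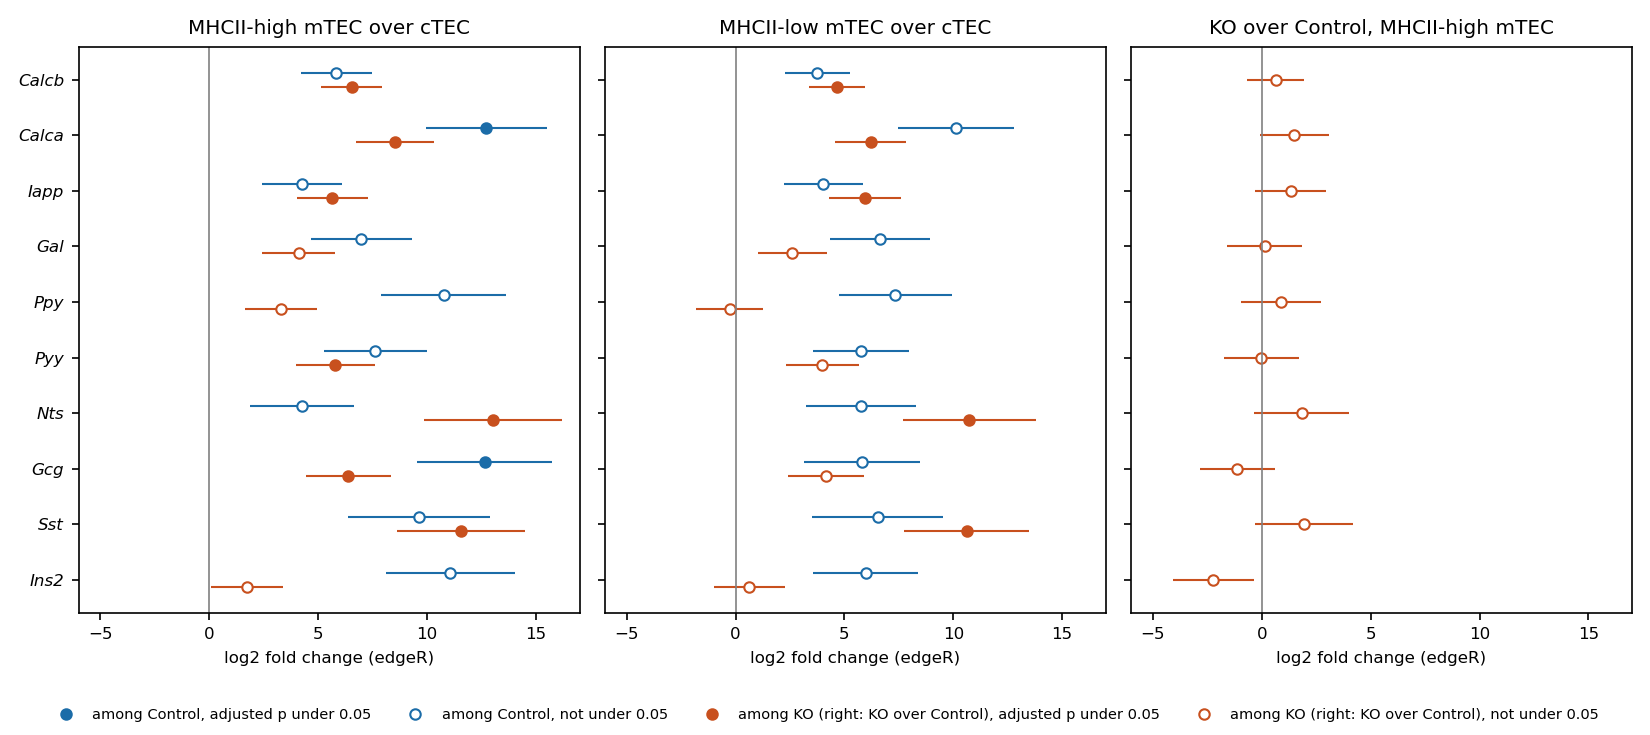
Log2 fold changes of the 10 genes (edgeR; bars are SE) for MHCII-high mTEC over cTEC, MHCII-low mTEC over cTEC and, in MHCII-high mTEC, KO over Control, with filled points where the adjusted p is under 0.05. Points set against a group without counts, such as Calca, Gcg, Ins2, Ppy and Sst over Control cTEC, are fitted values and no bounds. Filled points occur in the comparisons with cTEC only.

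None of the 10 genes passed the test between MHCII-high and MHCII-low mTEC. In Control no gene of all 23040 passed (0%, with 1720 at an unadjusted p under 0.05), and in KO 0.00868% were called higher, none of them a hormone gene. The largest differences in Control were those of Gcg, with means of 163 and 1.38 CPM (log2 fold change 6.84 ± 2.59 SE, adjusted p = 0.661), and Ins2 (5.10 ± 2.54, adjusted p = 0.661). Ppy had log2 fold changes of 3.41 ± 2.20 in Control and 3.58 ± 1.68 in KO (adjusted p = 0.779 and 0.256), Sst of 3.09 ± 2.53 and 0.93 ± 1.77, Calca of 2.59 ± 1.78 and 2.33 ± 1.33, and Calcb of 2.08 ± 1.52 and 1.87 ± 1.14. For Pyy they were 1.86 ± 2.01 and 1.80 ± 1.51, for Gal 0.36 ± 1.96 and 1.495 ± 1.51, for Iapp 0.22 ± 1.75 and -0.30 ± 1.32, for Nts -1.52 ± 2.31 and 2.29 ± 1.79, and for Gcg and Ins2 in KO 2.25 ± 1.58 and 1.09 ± 1.63. Calcb in Control was the single case in which all MHCII-high libraries of a genotype with more than 2 libraries lay above all MHCII-low ones. Voom called 3 of the genes in KO, where it called 635 of all 23040 genes and edgeR 4.

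The MHCII-low libraries differed widely from each other. Their summed hormone level was 501 ± 552 CPM (SD, n = 4) in Control and 700 ± 750 (SD, n = 7) in KO. In MHCII-high mTEC it was 1380 ± 746 (SD, n = 4) and 2234 ± 481 (SD, n = 7). In cTEC it was 17.7 ± 19.8 (SD, n = 5) and 34.6 ± 38.5 (SD, n = 7). Single MHCII-low libraries held 976, 982, 26.1 and 18.8 CPM in Control, 0.697 to 1987 in KO (median 369) and 286 and 46.5 in Ski flox Control. Aire was at 510 CPM in KO replicate 3 and 362 in KO replicate 4, whose hormone sums were 1987 and 1287. It was at 207 in Control replicate 3 (sum 982), and at 4.06 and 4.70 in Control replicates 4 and 5, with the lowest Control sums. The summed thymocyte and T cell markers were 1545 and 2773 CPM in Control replicates 4 and 5, which are late-set libraries, against 94.6 and 132 in Control replicates 1 and 3, which are early-set ones. In KO the lowest hormone sums, 14.6 and 0.697 CPM, were also in late-set libraries, replicates 6 and 7, with thymocyte sums of 1484 and 3390 CPM, while replicate 3, with the highest hormone sum, had 1494. Control replicate 1 and KO replicate 5 had sums of 976 and 1003 CPM with Aire at 40.0 and 12.8. In these 2 libraries 1 gene led: Nts at 598 CPM and Iapp at 763 CPM. The summed tuft cell markers were 6211 and 5546 CPM there, within the MHCII-low range of 267 to 8029. In Ski flox Control replicate 1, Sst made up 190 of the 286 CPM. The summed MHCII-high mTEC markers include MHC class II and antigen presentation genes. They were between 11430 and 44536 CPM in MHCII-low libraries, 21537 and 36667 in MHCII-high ones and 9548 and 38817 in cTEC. This sum thus separates none of the subsets. The part of these differences between libraries in the results was not tested.

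**Figure D4:**
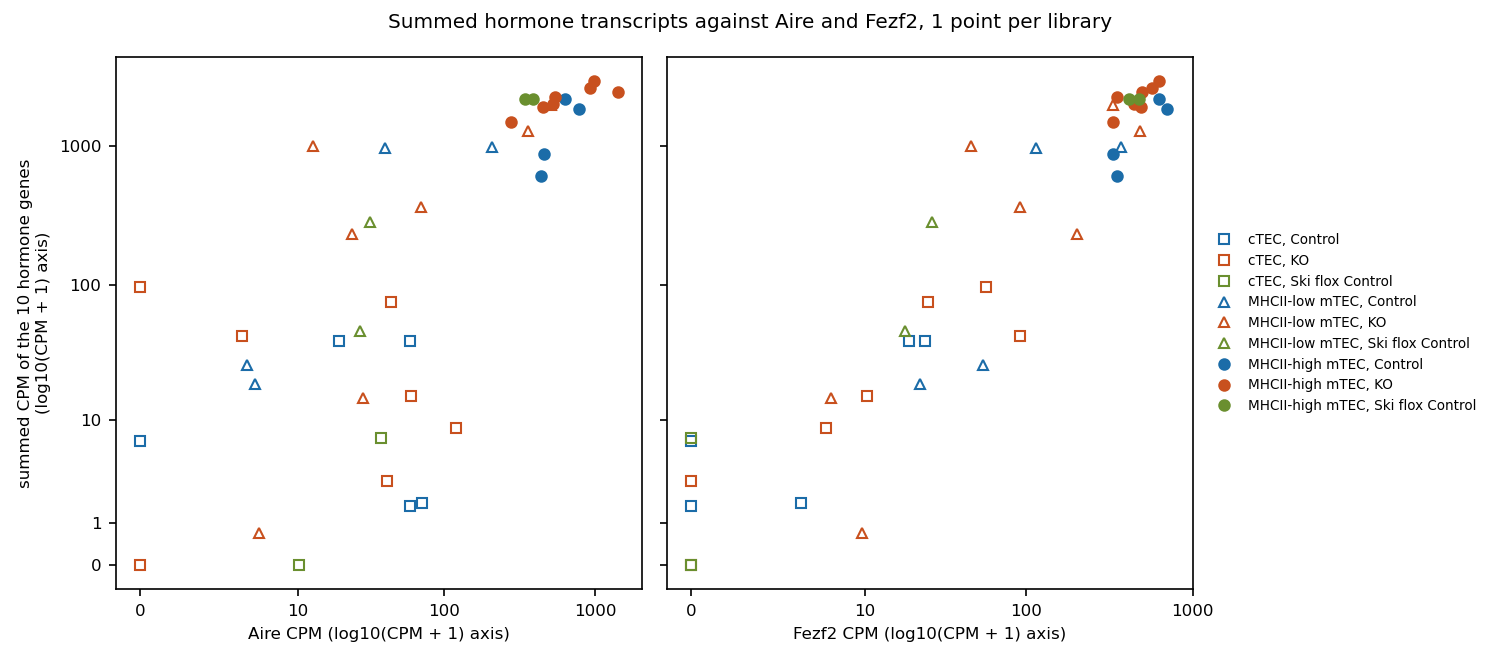
Summed CPM of the 10 hormone genes in each library against Aire (left) and Fezf2 (right), all on log10(CPM + 1) axes, with shapes for subsets and colours for genotypes. MHCII-high libraries (filled circles) sit together above 600 CPM, MHCII-low ones (triangles) run from under 1 to 1987 CPM, and cTEC ones (squares) stay below 100.

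In cTEC the counts were few and in different genes from library to library. The 27 detections fell on Calcb (9 libraries), Gal (6), Iapp and Pyy (3 each), Ins2 (2) and Gcg, Calca, Ppy and Nts (1 each). No hormone count was found in KO replicate 1 and Ski flox Control replicate 1. The largest sums were 97.2 CPM in KO replicate 2, 75.2 in KO replicate 6 and 42.7 in KO replicate 3. In those 3 libraries Fezf2 was at 56.9, 25.1 and 91.4 CPM and Aire at 0, 44.4 and 3.68, against medians over cTEC of 4.50 and 39.4. Psmb11 was at 872, 243 and 608 CPM, within the cTEC range. The library low in Psmb11, KO replicate 5, held 8.59 CPM of hormone transcripts, almost all Gal. The part of medullary cells in these counts was not tested.

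No hormone gene passed edgeR's test between KO and Control in any subset. No gene of the 23040 passed in cTEC, MHCII-low mTEC or MHCII-high mTEC (0% in each, with 2443, 1639 and 1586 at an unadjusted p under 0.05), so a count of 0 hormone genes is at the background. In MHCII-high mTEC the log2 fold changes of KO over Control were 1.49 ± 1.58 SE for Calca, 0.63 ± 1.32 for Calcb, 1.33 ± 1.64 for Iapp, 1.94 ± 2.24 for Sst, 1.83 ± 2.18 for Nts, 0.87 ± 1.83 for Ppy, 0.13 ± 1.74 for Gal, -0.03 ± 1.72 for Pyy, -1.12 ± 1.73 for Gcg and -2.22 ± 1.85 for Ins2, each with adjusted p = 1. An SE of 1.32 or more on this scale leaves room for changes of several fold either way. The summed level was 2164, 1856, 885 and 614 CPM in Control, ranged from 1485 to 2926 in KO (median 2249) and was 2179 and 2164 in Ski flox Control. Only Control replicates 4 and 5 were below every KO library.

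In MHCII-low mTEC the changes were 1.75 ± 1.61 for Calca, 0.85 ± 1.33 for Calcb, 1.85 ± 1.68 for Iapp, 3.48 ± 2.14 for Gcg (adjusted p = 0.846), 4.10 ± 2.55 for Sst (adjusted p = 0.861), 1.78 ± 2.06 for Ins2, 0.70 ± 1.84 for Ppy, 0.04 ± 1.73 for Pyy, -1.01 ± 1.70 for Gal and -1.98 ± 1.96 for Nts. The KO and Control ranges overlapped for each of the 10 genes in each subset. In cTEC the change was -0.07 ± 1.23 for Calcb, -0.06 ± 1.51 for Iapp, 1.83 ± 1.82 for Pyy and 3.01 ± 1.92 for Gal. The fitted cTEC values of Ins2 (7.12 ± 2.48, adjusted p = 0.329), Gcg (5.13 ± 2.54), Calca (5.67 ± 2.65), Ppy (8.32 ± 2.62, adjusted p = 0.329) and Nts (-6.94 ± 3.05, adjusted p = 0.389) each rest on 1 or 2 libraries set against a group without a count. DESeq2 called Gcg, Ppy, Nts and Calca there, all with counts in 1 of the 12 libraries, among 516 of all 23040 genes.

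Against Ski flox Control, with 2 libraries a subset, none of the 10 genes and no gene at all passed in any subset (edgeR, 0% in each, with 1137, 1410 and 726 genes at an unadjusted p under 0.05). The effect of KO also differed between no 2 subsets for any gene tested (0% for MHCII-low minus cTEC, for MHCII-high minus cTEC and for MHCII-high minus MHCII-low, with 1701, 1673 and 1421 genes at an unadjusted p under 0.05). DESeq2 called 4 of the 10 genes against Ski flox Control in cTEC, among 1037 of all 23040 genes, and 2 in MHCII-low mTEC, among 998. It called 4 in the interaction of MHCII-low mTEC with cTEC, among 370, and 4 in that of MHCII-high mTEC with cTEC, among 365.

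Within MHCII-high mTEC each library had its own mix of hormones. Gcg made up 542 of 2164 CPM in Control replicate 1 and had no count in Control replicate 5 or KO replicate 3. Ins2 was at 199 CPM in Control replicate 4 and without a count in 3 of the 13 libraries, and Nts ran from 0 in KO replicate 2 to 949 in KO replicate 1. Over the 45 pairs of genes in these 13 libraries, Pearson's r of log2(CPM + 1) had a median of 0.0594 and ran from -0.487 to 0.651, and it was below 0 for 18 pairs. The highest was that of the neighbours Calca and Calcb (r = 0.651, permutation p = 0.0163, adjusted over the 45 pairs 0.638; Spearman's rho = 0.676, permutation p = 0.0138, adjusted 0.475). It was 0.573 without the 2 libraries farthest from the Calca median, 0.606 among the 7 KO libraries, 0.513 for early-set libraries and 0.738 for late-set ones. The neighbours Ppy and Pyy had r = 0.497 (permutation p = 0.0863, adjusted 0.844; rho = 0.56, permutation p = 0.0496, adjusted 0.661), which was 0.55 without the 2 farthest libraries and -0.0415 in the early set. No pair passed after adjustment.

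**Figure D5:**
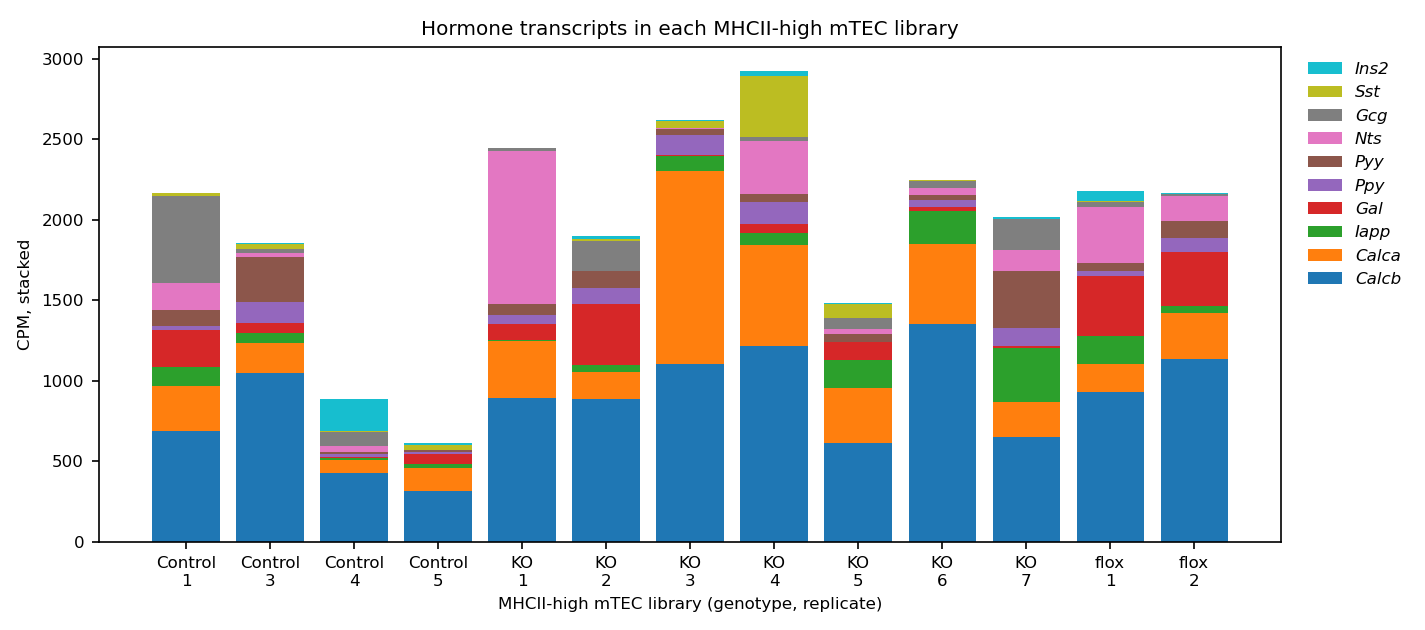
CPM of the 10 hormone genes stacked for each of the 13 MHCII-high mTEC libraries (genotype and replicate below each bar). Calcb forms the base of every bar, and Gcg, Nts, Sst, Pyy and Ins2 are large in single libraries and small or absent in others.

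This spread also shows in the fit. The biological coefficient of variation of the 10 genes ran from 1.46 for Calcb to 2.46 for Nts, against a median of 1.62 over all genes tested and of 0.796 over the 10313 genes tested with at least the average level of the lowest of the 10.

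Some genes followed a hormone gene closely over the 40 libraries, a likeness that carries the difference between subsets and is given with no test. Calcb was most like Cadps, a factor for dense-core vesicle release (r = 0.948), Skint2 (0.944) and Fezf2 (0.941). Within the 13 MHCII-high libraries the r of these 3 with Calcb was 0.258, -0.157 and 0.518. The genes most like Calca were Stra8 (0.916), a meiosis factor, Sbpl (0.909) and Hal (0.907), the enzyme that degrades histidine. Within the MHCII-high libraries their r with Calca was 0.208, 0.299 and 0.574. Pyy was most like Dnaic2 (0.925), an axonemal dynein subunit, Ppy most like Pyy itself (0.897), Gal most like Crhbp (0.882), Gcg most like Tex11 (0.866) and Iapp most like Calcb (0.854). Sst and Nts were found in too few libraries for this measure (16 and 19, with a minimum of 20).

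The wider hormone system was read from lists of genes. Genes of these lists could also pass the count filter through the mTEC groups alone. The medians and shares of all genes are therefore no matched background for these lists. Of 60 other peptide hormones and neuropeptides, 51 were tested, and in KO 25 were higher in MHCII-high mTEC than in cTEC and none lower, where 12.9% of all genes were higher. The median log2 fold change of this list was 5.20 in KO, against 0.283 for all genes. With the 24 genes that had no count in 1 of the groups at their bounds, and 2 that were at or under 3 counts in both left out, it was also 5.20. The lowest adjusted p-values (edgeR) were those of Tac2, which encodes neurokinin B (0.000977), the incretin Gip (0.00168), Cck, cholecystokinin (0.00916), and Nms, neuromedin S (0.0101). These 4 had no count in any cTEC KO library. Their medians in MHCII-high KO were 178 CPM for Tac2, 33.0 for Gip, 14.6 for Cck and 0 for Nms, which was found in 3 of 7 libraries. In Control 1 of the 51 passed, Gip (edgeR, adjusted p = 0.0497), where 1.07% of all genes were higher. The list median was 4.51 in Control, or 3.996 with 25 genes at their bounds and 1 left out, against 0.253. In MHCII-low mTEC, 9 of the 51 were higher than in cTEC in KO, where 5.19% of all genes were. Nppc, a natriuretic peptide gene, was lower, as were 113 of all 23040 genes.

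Of 25 genes for prohormone processing and dense-core granules, 24 were tested. In KO 8 were higher in MHCII-high mTEC than in cTEC, where 12.9% of all genes were, with a list median of 3.11 (3.16 with 8 genes at their bounds and 1 left out), among them Snap25, Scgn, Syt7 and Vgf (edgeR, adjusted p = 0.00156, 0.00233, 0.0043 and 0.0107). Snap25 and Syt7 act in vesicle fusion. These 4 had no count in cTEC KO, and medians of 15.4, 23.8, 4.34 and 1.96 CPM in MHCII-high KO. In Control, where 1.07% of all genes were higher, 1 passed: Scg5, the chaperone of the convertase Pcsk2 (8.55 ± 1.71, adjusted p = 0.00841), which was at 33.6 to 84.2 CPM in MHCII-high Control libraries and at 0 to 0.708 in cTEC ones, but at up to 39.4 in cTEC KO. The prohormone convertases were low beside the hormones: in MHCII-high Control libraries Pcsk1 had a median of 3.03 CPM and Pcsk2 of 0.712.

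Of 26 receptors of these hormones, 19 were tested. In KO 5 were higher in MHCII-high mTEC than in cTEC, where 12.9% of all genes were, among them the somatostatin receptor Sstr3, the calcitonin receptor Calcr, the glucagon receptor Gcgr and the neurotensin receptor Ntsr1 (edgeR, adjusted p = 0.0209, 0.0223, 0.0252 and 0.0404). Their median levels in MHCII-high KO were 9.32 CPM for Calcr, 0.196 for Ntsr1 and 0 for Sstr3 and Gcgr, which were each found in 3 of 7 libraries. In Control none of the 19 passed, where 1.07% of all genes were higher.

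Of 26 transcription factors of islet and enteroendocrine cells, 19 were tested, and 2 were higher in MHCII-high mTEC than in cTEC in Control, among them Foxa1, where 1.07% of all genes were. In KO 7 were higher, among them Foxa1 and Hnf4g, where 12.9% of all genes were. The islet cell factors Neurod1 and Pdx1 were at no more than 7.29 and 0.253 CPM in any MHCII-high library. Neurod1 was at 104 CPM in MHCII-low Control replicate 1. Of 14 regulators of promiscuous expression, Fezf2 was higher in both genotypes (log2 fold change 5.74 ± 1.42 SE, edgeR adjusted p = 0.0379 in Control; 4.13 ± 1.09, adjusted p = 0.0155 in KO). Aire was higher in KO (4.25 ± 1.14, adjusted p = 0.0164) and not past the threshold in Control (3.80 ± 1.35, adjusted p = 0.12). The Calca gene is also on the list of thyroid follicular and C cell markers, of which 5 of 13 tested were higher in KO, Calca among them, where 12.9% of all genes were. Tg, thyroglobulin, had a median of 5.70 CPM in MHCII-high mTEC and 4.73 in cTEC.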

How the data were processed

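RNA of 42 libraries of 200 sorted thymic epithelial cells was amplified with SMART-Seq v4, per the labels' protocols. The authors deposited whole-number counts per gene in 1 table of 53465 Ensembl genes, not normalised. The submitters' processing notes name HTSeq 0.4.1, SAMtools 1.2, Picard 1.134, FastQC 0.11.3 and GRCm38; the aligner is not given in the sources used here. Symbols and positions came from GENCODE M21, which matched 53360 identifiers.

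Libraries were grouped by their labels. Those under 100000 counts were left out, and the 40 others held 3217251 to 7068077. Genes were filtered with filterByExpr and tested with edgeR 4.0.16 (R 4.3.3; TMM, quasi-likelihood test, 9 group means), with Benjamini-Hochberg adjustment over 23040 genes and a threshold of 0.05. SE is the log2 fold change divided by the square root of F. The test was checked on simulated data for MHCII-high mTEC against cTEC in Control: of 200 genes changed by 3 on the log2 scale it found 40% (21402 genes), and of 200 changed by 6 it found 75.5% (21351 genes). In the simulation each gene had the same level in all groups before the change, whereas the hormone genes had few or no counts in cTEC. These shares are therefore not the power for the hormone genes. Alternatives used limma 3.58.1 and DESeq2 1.42.0, other filters and size factors, and left-out libraries. Levels and correlations were computed in Python 3.11.15 with SciPy 1.17.1 and a pseudocount of 1.

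The 10 genes, the gene lists and the tests were chosen with earlier results of these data known. From each list up to 4 genes past the threshold, by smallest p, are named, and for genes of like pattern the 3 of highest r. Pcsk1, Pcsk2, Nppc, Tg, Neurod1 and Pdx1 were named after their values were seen. Some genes that these rules name are not reported here.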

Additional observations from a re-analysis of the deposited data

Results flagged for a closer look

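In 60 groups of a gene, subset and genotype with 4 to 7 libraries, 9 held a library far from the others on the log2(CPM + 1) scale. The cutoffs flag about 1 group in 20 for normally distributed values, which these are not. A group with counts in 1 library only is always flagged, and a group without a count never is. The former holds for Gcg, Calca, Iapp and Ppy in cTEC KO and for Pyy and Nts in cTEC Control. The 9 flags can therefore not be set against that rate. Gcg was at 6.20 CPM and Calca at 9.19 CPM in cTEC KO replicate 3. Iapp was at 19.2 CPM in cTEC KO replicate 2. Ppy was at 56.9 CPM and Pyy at 12.2 CPM in cTEC KO replicate 6. Pyy was at 2.34 CPM in cTEC Control replicate 2. Nts was at 15.3 CPM in cTEC Control replicate 3, the library with parathyroid transcripts. In mTEC, Sst was at 9.09 CPM in MHCII-low Control replicate 1, and Ppy was low, at 1.32 CPM, in MHCII-high KO replicate 5.

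The MHCII-high Control library left out for its depth of 41828 counts also held hormone counts: 12 of Calca, 27 of Calcb, 26 of Iapp, 19 of Pyy and 7 of Gal.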

How the results depend on the processing

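No paired analysis was possible because no label ties libraries of different groups to one animal, day or batch, and the replicate numbers only name libraries. Size factors of DESeq2 within edgeR and no count filter changed no count of hormone genes called. The early and late set alone were chosen after seeing the data. The cause of the changes below was not tested, except that single sets and left-out libraries hold fewer samples.

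For MHCII-high mTEC against cTEC in Control, the count of 2 became 5 with a filter of 10 CPM, 8 with DESeq2, 7 with voom, 4 with all 42 libraries, 5 with the set as a covariate, 5 with only the groups compared (8 genes tested), 0 in either set alone, and 0 to 2 without 1 library. In KO the count of 7 became 8 with voom, which gained Ppy and Gal and lost Calcb, 3 in the early set, 4 in the late set, 3 with only the groups compared (8 tested) and 5 to 7 without 1 library. For MHCII-low mTEC against cTEC in Control, 0 became 1 with the filter of 10 CPM, 5 with DESeq2 and 1 with the covariate. In KO, 5 became 0 with voom, in either set alone and with only the groups compared (1 tested), and 0 to 5 without 1 library: it was 0 without cTEC KO replicate 4, 1 without replicate 7, 2 without replicate 3, and 3 without replicate 5, replicate 6 or MHCII-low KO replicate 3. Without cTEC KO replicate 3 or 6, Calca alone of the 5 genes kept its call, and the counts include genes not called with all libraries. For MHCII-high against MHCII-low mTEC in KO, 0 became 3 with voom and 1 in the late set. DESeq2 called 4 genes for KO against Control in cTEC, 4 and 2 for KO against Ski flox Control in cTEC and MHCII-low mTEC, and 4 for each difference in KO effect from cTEC.

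Some log2 fold changes turned direction, none of which had passed the test with all libraries. For MHCII-low mTEC against cTEC in KO, Ppy was 2.35 with voom, 8.79 in the early set and -0.87 to 8.03 without 1 library, the last value past the threshold (edgeR, adjusted p = 0.0266, without cTEC KO replicate 6), and in the late set Pyy was -7.38 and Gal -2.40. For MHCII-high against MHCII-low mTEC in Control, Iapp was -0.0045 in the early set and -0.48 to 1.18 without 1 library, Nts was 1.69 with voom, 1.15 with the covariate, 9.65 in the late set and -2.90 to 0.98 without 1 library, and Gal was -0.70 to 4.94 without 1 library. In KO, Iapp was 2.47 with voom and up to 1.04 without 1 library, and Sst was -0.65 to 4.48. For KO against Control in MHCII-low mTEC, voom gave -0.52 for Calcb, -0.27 for Iapp and -0.93 for Pyy, the early set gave -0.18 for Pyy, and without 1 library Pyy was -1.32 to 1.32, Nts -4.06 to 0.52 and Gal -2.97 to 3.58. In MHCII-high mTEC, voom gave 0.99 for Gcg, -1.16 for Sst and 0.61 for Pyy, the covariate 0.34 for Gcg and 1.17 for Pyy, the early set 2.22 for Ins2, -0.73 for Iapp and -0.19 for Gal, the late set 1.31 for Gcg and 3.66 for Pyy, and pooled controls 0.075 for Pyy and -0.85 for Gal. Without 1 library, Ins2 was -2.78 to 0.72, Gcg -1.59 to 1.05, Pyy -0.82 to 1.28 and Gal -0.80 to 1.19. In cTEC, Calcb was 0.32 with voom, 0.14 with the covariate, 1.16 in the late set, 0.39 with pooled controls and -0.79 to 0.66 without 1 library, Iapp was 0.38 with pooled controls and -6.78 to 0.65 without 1 library, and Pyy was -2.84 in the early set and -2.54 to 6.14 without 1 library.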
